A study of Mus musculus with 3 samples.

Results

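The 18 knock-labelled columns of a study of L929 cells, a mouse fibroblast line, were compared between the 2 methods that read them. They are 10 of the 20 columns of a CBTi-seq sample, named knock there, and all 8 columns of a 3' library labelled knock, out of 36 columns in the whole study. The other 18 are the control-named columns of the same CBTi-seq sample and a separate 3' library labelled control. Per the labels, knock stands for cells with a knockdown of Rrm2 and control for their comparison cells. The agent of the knockdown, its dose and its time were not given in the sources used here, and neither is the number of clones. The protocol text is the same for all samples. It describes single cells taken up with a glass capillary, reverse transcription from an oligo dT primer and 20 cycles of PCR. Genes with a row in both tables were compared, 20328 of the 20716 genes of the CBTi-seq table and of the 55034 gene symbols of the 3' table. Levels are given as CPM, counts summed over the columns of a method and scaled to the usual total per library. The aim was to see which of 4 programs (cell cycle, stress, cytokine and cytoskeleton genes) were at high levels by both methods and which by only 1.

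Ribonucleotide reductase turns ribonucleotides into the deoxyribonucleotides that DNA synthesis needs. Rrm1 is its large subunit, Rrm2 the small subunit of cycling cells and Rrm2b a small subunit induced by p53. Cells short of these building blocks slow in S phase, and the replication stress that follows is sensed through checkpoint kinases and p53. Fibroblasts also carry a large actin cytoskeleton with focal adhesions, and they secrete chemokines and growth factors such as Csf1 when NF-kB is active. A 3' method reads the end of each transcript, so its counts should not grow with transcript length.

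Each method was 1 sample here, and the columns of a sample are not replicates. Values below are therefore descriptions of these libraries with no test, and the 95% intervals (exact Poisson for a level, exact conditional for a ratio) cover counting error only. The CBTi-seq columns held 153051 to 735871 counts (median 330390.5) and the 3' columns 814960 to 1973137. A count of 3 in the sum of a method stood for 0.855 CPM in CBTi-seq and 0.327 CPM in the 3' library. Levels of the 3' columns resembled each other more, with Pearson's r between column pairs of 0.97 to 0.98 against 0.83 to 0.94 in CBTi-seq, over genes with a mean of 50 CPM or more. The range of levels was narrower in CBTi-seq, where the highest count of any gene in a column was 512 to 638 in every knock column. In the 3' columns it was 22052 to 59262. Hspa5, an endoplasmic reticulum chaperone, had 424 to 614 counts across CBTi-seq columns whose totals differed by 4.81-fold, a 1.45-fold range. Ccnd2, a cyclin at a lower level, had 72 to 248, a 3.44-fold range. Accordingly 27 genes lay at 1000 CPM or more in CBTi-seq and 149 in the 3' library. In CPM Hspa5 ran from 834 to 2959.8 over the same CBTi-seq columns, so the CPM of the most abundant genes there carries the depth of the column.

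Rrm2 went against the label of the 3' library. This gene (ENSMUSG00000020649, chromosome 12, 24708241 to 24714146, plus strand, GRCm38) was at 350.1 CPM in the CBTi-seq columns named knock and 481 CPM in those named control. Its 3' levels were 148 CPM under the label knock and 39.1 CPM under the label control. The 3' values below are therefore those of the library labelled knock, whose label Rrm2 does not bear out, and no direction of the knockdown is drawn from them. Of 16 fibroblast markers 12 had a row in both tables, and 6 were high in both methods, 1 in CBTi-seq only and 5 in neither. Vim, Sparc, S100a4 and Serpinh1 were at 159.7 to 1479.7 CPM in both methods. Pdgfra, a growth factor receptor of fibroblasts, was at 14.3 and 3.93 CPM, and Fn1, fibronectin, at 48.8 and 23.8 CPM. Col1a1, a collagen chain, was at 71.0 CPM in CBTi-seq and 117 CPM in the 3' library, while Col3a1 was at 3.42 and 0.655 CPM. Thy1, Dcn, Lum and Fap had no row in both. Of 9 endothelial, 9 epithelial and 11 neuronal and glial markers, only 1, 5 and 4 had a row in both. The summed levels of each of these groups were at most 8.95 CPM in each method. Cdh1, an epithelial marker with no row in CBTi-seq, was high in the 3' library at 110 CPM. Of the 6 macrophage and leukocyte markers, only Cd68, a lysosomal protein, was high in either, at 20.0 CPM in CBTi-seq and 150.0 CPM in the 3' library. Of 7 muscle and fat markers 5 were high in neither. Fabp4, a fatty acid carrier of fat cells, was at 416 and 456 CPM, while Plin1 and Cidec, proteins of fat droplets, were at most at 1.71 CPM.

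A gene was called high at 50 CPM or more. Of 5495 genes high in 1 or both methods, 2379 (43.3%) were high in both, 2657 (48.4%) in CBTi-seq only and 459 (8.35%) in the 3' library only. The split between the last groups depended on the scaling: with TMM factors, which align the bulk of the genes, it was 1483 and 1004, and with median-of-ratios factors 1394 and 1076. Of 4125 genes with a mean at or above 50 CPM, 849 (20.6%) had 4-fold or higher levels in CBTi-seq and 171 (4.15%) in the 3' library. With TMM factors these counts were 361 and 434. The median log2 ratio of CBTi-seq to 3' CPM was 0.94 over the 7535 genes with a mean of at least 20 CPM, 0.05 with TMM factors and -0.04 with median-of-ratios factors. Program medians are therefore read against it. Across these 7535 genes the log2 levels of the methods had a Pearson's r of 0.31 and a Spearman's rho of 0.40, and across the 3377 of them that overlap no other annotated gene 0.54 and 0.56. Genes are not independent replicates, and the correlations are descriptions.

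**Figure D1:**
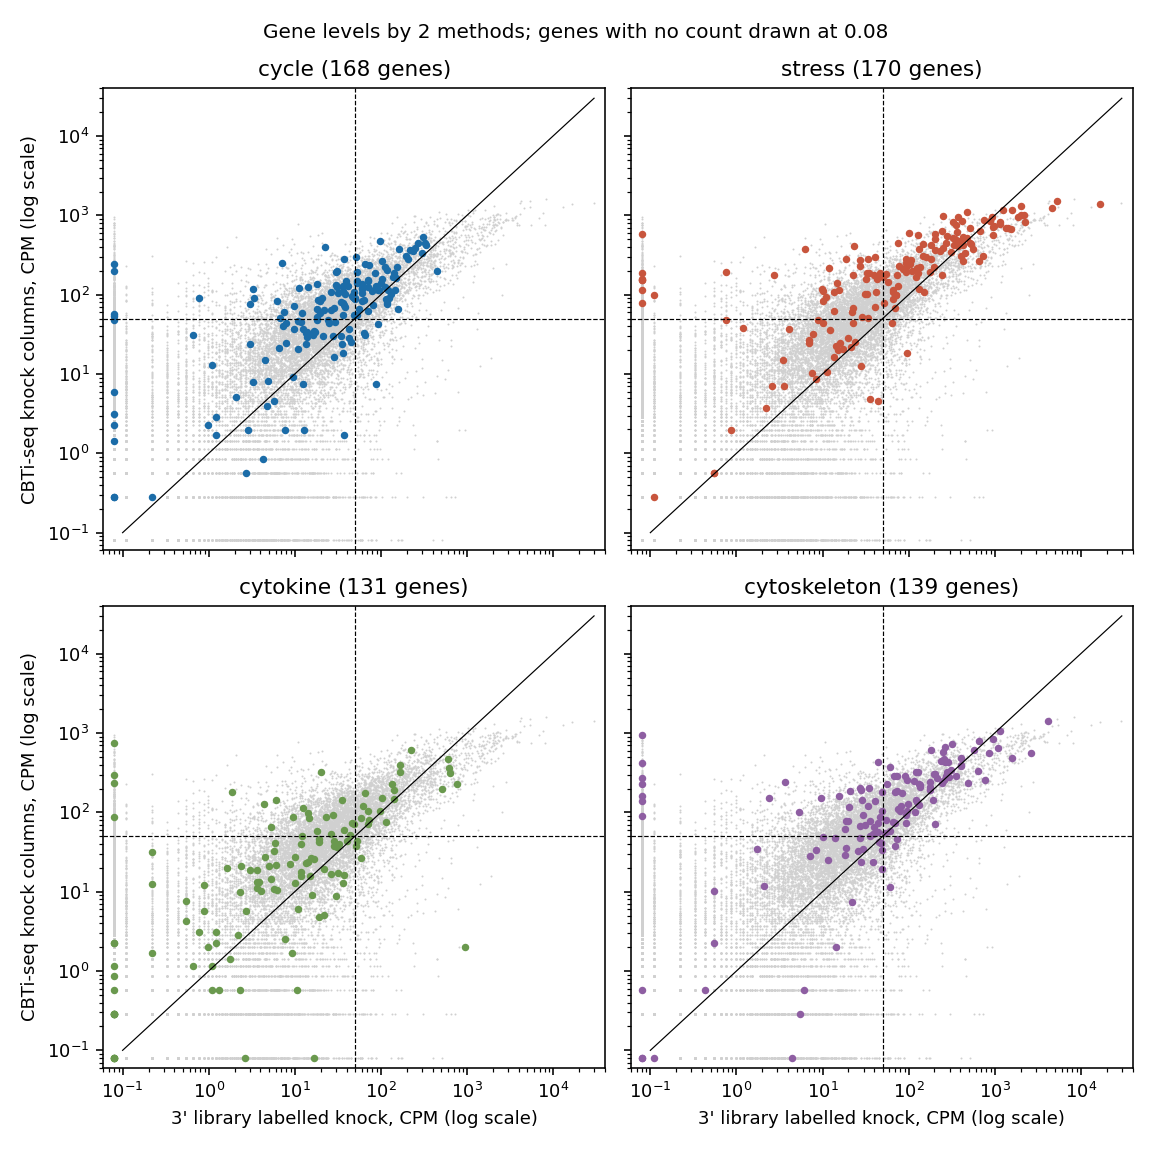
CPM of each gene in the 3' library labelled knock (x) and in the CBTi-seq knock columns (y), both on log scales, with 1 panel per program (coloured points) over all 20328 genes (grey). Dashed lines mark 50 CPM and the solid line equal CPM, and the flattening at the right shows that CBTi-seq levels end near 1609.9 CPM while 3' levels reach 29710.5 CPM.

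Stress and cytoskeleton genes were the programs most often high by both methods. Of the members high in 1 or both, 95 of 138 stress genes (68.8%) and 69 of 108 cytoskeleton genes (63.9%) were high in both, beside 43.3% over all genes. For the cell cycle these were 57 of 111 (51.4%), and for cytokine genes 20 of 47 (42.6%). High in CBTi-seq only were 50 cycle, 41 stress, 23 cytokine and 36 cytoskeleton genes. High in the 3' library only were 4, 2, 4 and 3. With TMM factors these 3'-only counts were 10, 3, 6 and 14, and the CBTi-seq-only counts 30, 31, 15 and 25. If the 3000 highest genes of each method by CPM per kilobase of longest transcript are called high instead, 40 cycle, 88 stress, 16 cytokine and 56 cytoskeleton genes were high in both. On that scale 22 cycle genes were among the highest in the 3' library only and 14 in CBTi-seq only. Median log2 ratios were 1.03 for cycle, 0.86 for stress, 0.65 for cytokine and 0.63 for cytoskeleton genes, beside 0.94 over all genes.

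**Figure D2:**
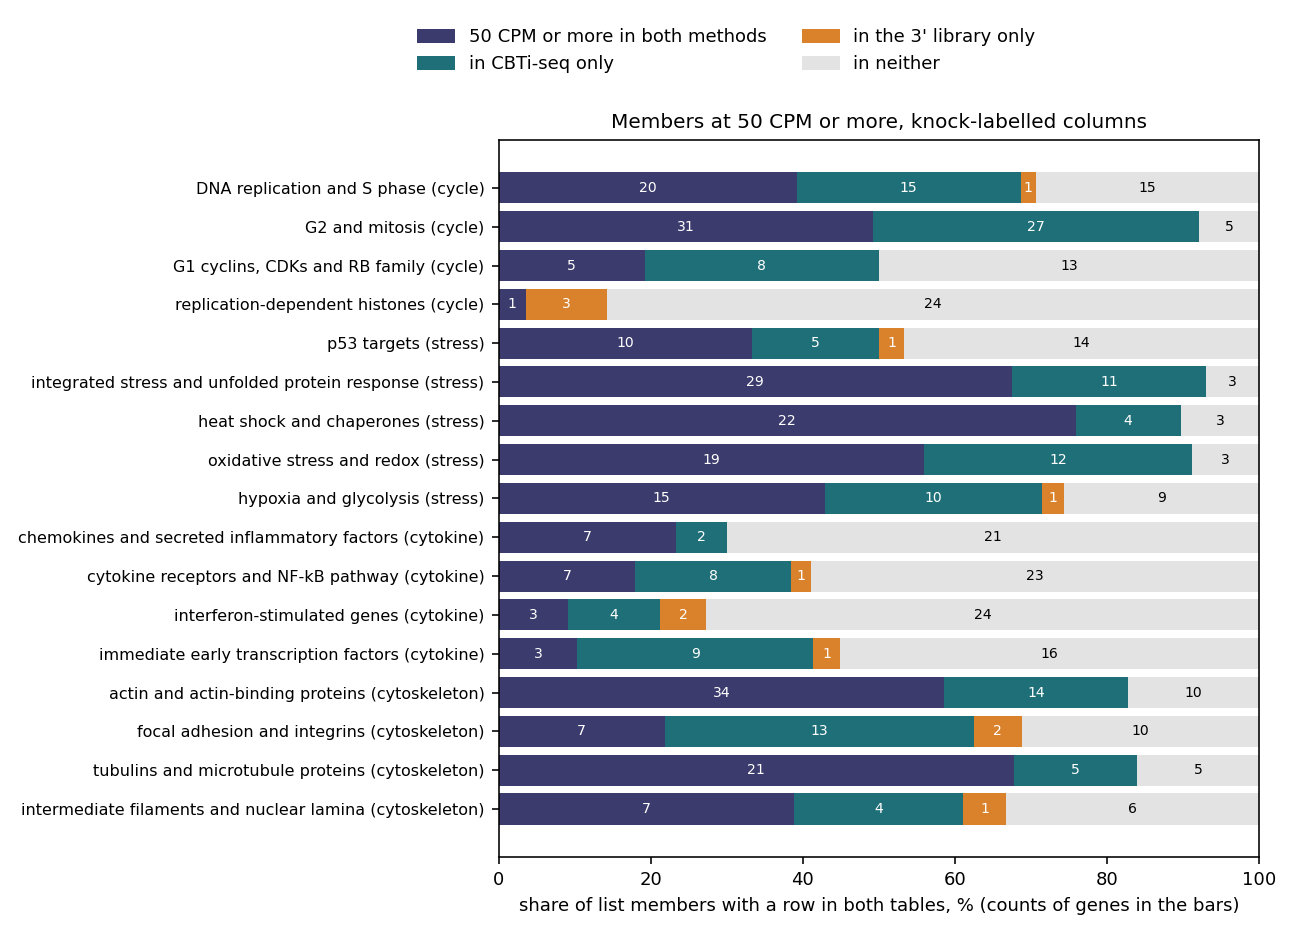
Share of the members of each list (with a row in both tables) that was at 50 CPM or more in both methods, in CBTi-seq only, in the 3' library only or in neither, with counts of genes printed in the bars. Chaperone, tubulin and stress response lists are mostly high in both, while 24 of 28 histone genes (85.7%) are high in neither, beside 73.0% of all genes. For chemokine and secreted factor genes this is 21 of 30 (70.0%), near the share of all genes.

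Among cycle genes, those of mitosis were the longest list. Of its 63 genes of G2 and mitosis 31 were high in both and 27 in CBTi-seq only, none in the 3' library only, and the median log2 ratio was 1.34. Top2a, the topoisomerase that untangles sister chromatids, was at 452 CPM in CBTi-seq (columns 342 to 627, median 505) and 326 CPM in the 3' library (287 to 377, median 326). The columns overlapped. Ube2c, which loads ubiquitin for the anaphase-promoting complex, was at 539 CPM (258 to 956) and 310.4 CPM (284 to 339), again with overlapping columns. Birc5, the survivin subunit of the chromosomal passenger complex, was at 335 and 298 CPM. Bub3 and Prc1 stood apart. Bub3, a spindle checkpoint protein, was at 241 CPM in CBTi-seq (156 to 372, median 248) and had no 3' count in any of the 8 columns, so it was at least 736-fold higher in CBTi-seq. Prc1, which bundles microtubules at the spindle midzone, was at 199 CPM (117 to 332) and had no 3' count either.

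For DNA replication and S phase, 20 of 51 genes were high in both, 15 in CBTi-seq only and 1 in the 3' library only, with a median log2 ratio of 0.84. Mcm2, a subunit of the replicative helicase, was at 113 CPM in CBTi-seq (48.7 to 196, median 88.5) and 121 CPM in the 3' library (102 to 134, median 119.6). Uhrf1, which carries DNA methylation through replication, was at 165 CPM (62.0 to 236) and 148 CPM (109 to 179). In both genes the CBTi-seq columns ran below and above all 3' columns. Fen1, the flap nuclease of Okazaki fragments, was at 119 CPM (37.3 to 177) against 3.27 CPM (1.05 to 7.19), a log2 ratio of 5.19 (4.65 to 5.78). Cdt1 and Gins2, both needed to load or start the helicase, were at 57.6 and 54.5 CPM with no 3' count. Chaf1b, a subunit of the histone chaperone CAF-1, was the 1 replication gene high in the 3' library only, at 63.8 CPM against 32.8 CPM.

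Of the 26 measured members of the G1 list 5 were high in both and 8 in CBTi-seq only. Of the 13 high in 1 or both, 38.5% were high in both, near the 43.3% over all genes. The median log2 ratio was 1.40, a difference of 0.46 from that of all genes. Ccnd2, Cdk4 and Cdk6, a D-type cyclin and its kinases, were within 2-fold: Ccnd2 at 429 and 335 CPM, Cdk4 at 452 and 268 CPM, Cdk6 at 285 and 208 CPM. Myc (ENSMUSG00000022346, chromosome 15, 61985391 to 61990374), the growth-promoting transcription factor, was at 396 CPM in CBTi-seq (266 to 594, median 365) and 22.3 CPM in the 3' library (13.6 to 28.7, median 21.9). The columns lay far apart, with a log2 ratio of 4.15 (3.94 to 4.37), and Myc overlaps no other annotated gene. E2f4, a repressor E2F, and Cdkn2c, an inhibitor of Cdk4 and Cdk6, likewise overlap none, and their log2 ratios were 3.11 and 2.91.

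Replication-dependent histones were the cycle list that leaned to the 3' library. These genes make the bulk of nucleosomes in S phase, and most of their transcripts end in a stem loop and carry no poly(A) tail. Only 4 of 28 were high in either method, 1 in both and 3 in the 3' library only, and 5 members passed the 20 CPM limit, so little rests on their median log2 ratio of -1.12. Hist1h1e, a linker histone, was at 67.0 CPM in CBTi-seq (10.1 to 143) and 157 CPM in the 3' library (129 to 188). Hist1h4d was at 7.41 CPM (0 to 26.1, median 5.48) and 88.7 CPM (58.8 to 111), a log2 ratio of -3.58 (-4.20 to -3.02) with columns that did not overlap. Near-identical copies exist for most histone genes, and how reads shared between copies were counted is not given, so single histone values are uncertain.

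The nucleotide supply genes around Rrm2 were split between the methods near the share over all genes. Of 32, 14 were high in both methods, 13 in CBTi-seq only and 1 in the 3' library only. Of the 28 high in 1 or both, 50.0% were high in both, beside 43.3% over all genes. Their median log2 ratio was 1.24. Rrm2 was at 350.1 CPM in CBTi-seq (283 to 489, median 362) and 148 CPM in the 3' library (123 to 173, median 154), and no column of one method reached the other. Its log2 ratio was 1.24 (1.13 to 1.35), beside a median of 0.94 over all genes. Columns of the methods did not overlap for 53.5% of genes with a mean of 50 CPM or more. Rrm1 was at 166 CPM (75.7 to 232) and 99.0 CPM (68.7 to 125), with overlapping columns. Rrm2b was the 1 member high in the 3' library only, at 18.2 CPM (10.1 to 32.7) against 94.8 CPM (85.7 to 105), a log2 ratio of -2.38 (-2.77 to -2.01). It overlaps other annotated genes on both strands. Tyms, the thymidylate synthase, was at 248 CPM (168 to 359) and 253 CPM (219 to 281), and Dut, which clears dUTP, at 222 and 281 CPM. Tk1, the salvage kinase of thymidine, was at 128 CPM (80.7 to 177) in CBTi-seq, and Nme1 and Nme2, nucleoside diphosphate kinases, at 383 and 315 CPM. All 3 had no 3' count.

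Among the 5 stress lists, chaperones had the largest share of members high in both methods. Of 29 heat shock and chaperone genes 22 were high in both and 4 in CBTi-seq only, with a median log2 ratio of 0.72. Hsp90ab1, the constitutive cytosolic Hsp90, was at 1162 CPM in CBTi-seq (743 to 1999) and 1236 CPM in the 3' library (1126 to 1357). Hspa8, the constitutive Hsp70, was at 849 and 885 CPM, and Cct5, a subunit of the chaperonin that folds actin and tubulin, at 725 and 979.6 CPM. Hsf1, the transcription factor that drives this program, was high in CBTi-seq only, at 83.3 CPM (35.5 to 111) against 10.3 CPM (5.69 to 14.6).

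The integrated stress and unfolded protein response list was at high levels by both methods too, with 29 of 43 genes high in both, 11 in CBTi-seq only and a median log2 ratio of 1.06. Hspa5, its best known target, was at 1502 CPM in CBTi-seq (834 to 2959.8, median 1661) and 5351 CPM in the 3' library (5052 to 5646). The columns did not overlap and the log2 ratio was -1.83 (-1.87 to -1.79), with CBTi-seq counts near the highest of any gene. Pdia6 and Hsp90b1, which also fold proteins in the endoplasmic reticulum, were at 997 and 2195 CPM and at 1318 and 2049 CPM. No member of the list was high in the 3' library only, so the 3 members with the largest ratios are named from those high in CBTi-seq only. Cebpb, a leucine zipper factor, was at 281 CPM (217 to 590.3) in CBTi-seq and 18.7 CPM (15.7 to 23.0) in the 3' library, and Syvn1, a ubiquitin ligase of the degradation branch, at 111 and 10.0 CPM. Slc7a5, an amino acid transporter, was at 152 CPM with no 3' count.

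Of 30 p53 targets 10 were high in both methods, 5 in CBTi-seq only and 1 in the 3' library only. Cdkn1a, the p21 inhibitor that holds the cell cycle, stood at 379.5 CPM in CBTi-seq (248 to 609, median 387) and 567 CPM in the 3' library (524 to 621, median 569.7), with overlapping columns. Bax, which opens the outer mitochondrial membrane, was at 349 and 310.2 CPM, and Gdf15, a secreted stress cytokine, at 185 CPM (52.3 to 361) and 129 CPM (105 to 166). Gadd45a, a damage-induced growth arrest protein, was high in CBTi-seq only, at 279 CPM (207 to 458) against 33.7 CPM (25.7 to 41.9), as was Aen, a p53-induced nuclease, at 109 against 13.4 CPM. The 1 target high in the 3' library only was Rrm2b. The median log2 ratio of 1.26 differed from that of all genes by 0.32, and by -0.06 with TMM factors, so the list kept no side.

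Of 34 redox genes 19 were high in both and 12 in CBTi-seq only. Fth1, the ferritin heavy chain that stores iron, was at 1372 CPM in CBTi-seq (807 to 2594) and 16808 CPM in the 3' library (16381 to 17149), a log2 ratio of -3.61 (-3.66 to -3.57). Mt1, a metallothionein, was at 1232 and 4613 CPM. Gsto1, a glutathione transferase, showed the opposite, with 584 CPM (451 to 795) in CBTi-seq and no 3' count. Keap1, the sensor that holds back the antioxidant response, was at 114 CPM with no 3' count. Of 35 hypoxia and glycolysis genes 15 were high in both and 10 in CBTi-seq only. Ldha, lactate dehydrogenase A, was at 1008 and 2020.3 CPM and Eno1, an enolase, at 959 and 928 CPM. Their regulator Hif1a (ENSMUSG00000021109, chromosome 12, 73901375 to 73947530) was at 189 CPM (148 to 239, median 173) in CBTi-seq with no 3' count.

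Of 158 listed cytokine genes 131 had a row in both tables, and 84 of these (64.1%) were high in neither method, beside 73.0% over all genes. Of 30 chemokines and secreted factors, 7 were high in both and 2 in CBTi-seq only, and the median log2 ratio was 0.21, a difference of -0.73 from that of all genes. Ccl7, which draws monocytes, was at 312 CPM in CBTi-seq (150.5 to 412, median 264) and 632 CPM in the 3' library (569.9 to 769.6, median 605). Lcn2, a siderophore-binding protein of inflammation, was at 231 CPM (85.8 to 451) and 771 CPM (710.5 to 893). In both genes every 3' column was above every CBTi-seq column. Csf1, the growth factor of macrophages, was at 610.5 CPM (509.6 to 954) and 222 CPM (188 to 309), with the columns the other way round. Ccl2 (ENSMUSG00000035385, chromosome 11, 82035571 to 82037453), the neighbour of Ccl7 on chromosome 11, was at 234 CPM in CBTi-seq (103 to 368, median 227) and had no 3' count. Tgfb1, a growth factor that controls matrix, was at 126 CPM (78.4 to 178) against 4.37 CPM (1.90 to 9.74), and it overlaps no other gene. Cxcl1, a neutrophil chemokine named after its values were seen, was at 178 CPM (25.8 to 406) and 65.8 CPM (41.7 to 87.8).

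In the other cytokine lists the share of members high in both was near the 11.7% of all genes: 17.9% for receptors and NF-kB genes, 9.09% for interferon-stimulated genes and 10.3% for immediate early factors. Of 39 receptor and NF-kB genes 7 were high in both and 8 in CBTi-seq only. Nfkbia, the inhibitor that NF-kB itself induces, was at 151 CPM (106 to 202) and 103 CPM (80.1 to 134). Jak1, a kinase of cytokine receptors, was at 147 and 141 CPM, and Tlr4, the receptor of lipopolysaccharide, at 26.2 CPM against 59.5 CPM. Of 33 interferon-stimulated genes, 3 were high in both, 4 in CBTi-seq only and 2 in the 3' library only. H2-K1, a class I antigen-presenting chain, was at 472 CPM (410.0 to 608) and 596 CPM (535 to 628). B2m (ENSMUSG00000060802, chromosome 2, 122147686 to 122153083), the light chain that pairs with it, was at 747 CPM (553 to 1098, median 838) in CBTi-seq and had no 3' count. Trim30a (ENSMUSG00000030921, chromosome 7, 104409025 to 104465193), a tripartite motif protein, was the reverse: 2.00 CPM in CBTi-seq (0 to 13.0, median 1.09) and 938 CPM in the 3' library (836 to 1082). Its log2 ratio was -8.88 (-10.19 to -7.83), or -9.59 without the column Knock_6, and it has close paralogs next to it.

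The immediate early list, of genes that cells switch on within minutes of a stimulus, was the cytokine list most often high in CBTi-seq only. This held for 9 of 29, against 3 high in both and 1 in the 3' library only. Of the 13 high in 1 or both methods, 23.1% were high in both, beside 43.3% over all genes. Klf6 was at 191 and 141 CPM, and Ier3 at 231 CPM (90.8 to 392) and 136 CPM (107 to 184). Egr1, the zinc finger factor of growth stimuli, was at 143 CPM (31.0 to 220.1) against 6.11 CPM (1.23 to 12.8), a log2 ratio of 4.55 (4.15 to 4.97). Fosl1, an AP-1 subunit, was at 321 CPM (237 to 425) against 20.1 CPM (11.9 to 27.1). In both the columns did not overlap. Jund, another AP-1 subunit, was at 181 against 1.86 CPM.

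Among cytoskeleton genes, 34 of 58 actin and actin-binding genes were high in both methods and 14 in CBTi-seq only. Actb, cytoplasmic beta-actin, was at 1431 CPM in CBTi-seq (788 to 2739.7, median 1548) and 4127 CPM in the 3' library (3622 to 5031), a log2 ratio of -1.53 (-1.57 to -1.49). Pfn1, which feeds actin monomers to filaments, was at 798 CPM (557 to 1117) and 663 CPM (550.1 to 832), with overlapping columns. Cfl1 (ENSMUSG00000056201, chromosome 19, 5490455 to 5495201), which severs filaments, was at 946 CPM (643 to 1503, median 1012) and had no 3' count, so it was at least 2889-fold higher in CBTi-seq. Myl12a, a myosin regulatory light chain, was at 416 CPM with no 3' count, and Tpm4, a tropomyosin, at 241 CPM against 3.71 CPM.

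Tubulin and microtubule genes had the largest share high in both methods and the lowest median log2 ratio of the 4 cytoskeleton lists. Of 31, 21 were high in both and 5 in CBTi-seq only, and the median was 0.29. Tubb5, the main beta-tubulin of cycling cells, was at 839 CPM (594 to 1281) and 960.2 CPM (762 to 1270.2). Tuba1b was at 619 and 583 CPM, and Tbca, a tubulin folding factor, at 400.0 and 405 CPM. Tuba1a, a close paralog of Tuba1b, was at 225 CPM (166 to 326) with no 3' count. Kif5b, the heavy chain of conventional kinesin, was at 184 CPM against 21.0 CPM. Of 18 intermediate filament and lamina genes 7 were high in both: Vim, the vimentin of fibroblasts, was at 1071 CPM (692 to 1666) and 1169 CPM (1102 to 1225). Lmna, the A-type lamin, was at 653 and 1091 CPM, and Lbr, the lamin B receptor, at 154 against 9.71 CPM. Syne1, a very long protein that ties the nucleus to actin, was high in the 3' library only, at 61.2 CPM (51.7 to 74.2) against 11.4 CPM (2.72 to 25.9).

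Focal adhesion and integrin genes were the cytoskeleton list with the fewest members high in both by share, 7 of 32, with 13 in CBTi-seq only and 2, Tns3 and Fblim1, in the 3' library only. Tln1, the talin that links integrins to actin, was at 194 CPM (137 to 248) and 177 CPM (160.0 to 189), and Zyx, a zyxin recruited by tension, at 225 CPM (164 to 295) and 131 CPM (98.3 to 159). Cav1, the caveolin of plasma membrane pits, was at 273 CPM (164 to 399) with no 3' count. Ilk, a scaffold of integrin adhesions, was at 159 CPM (113 to 192) and also had none.

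**Figure D3:**
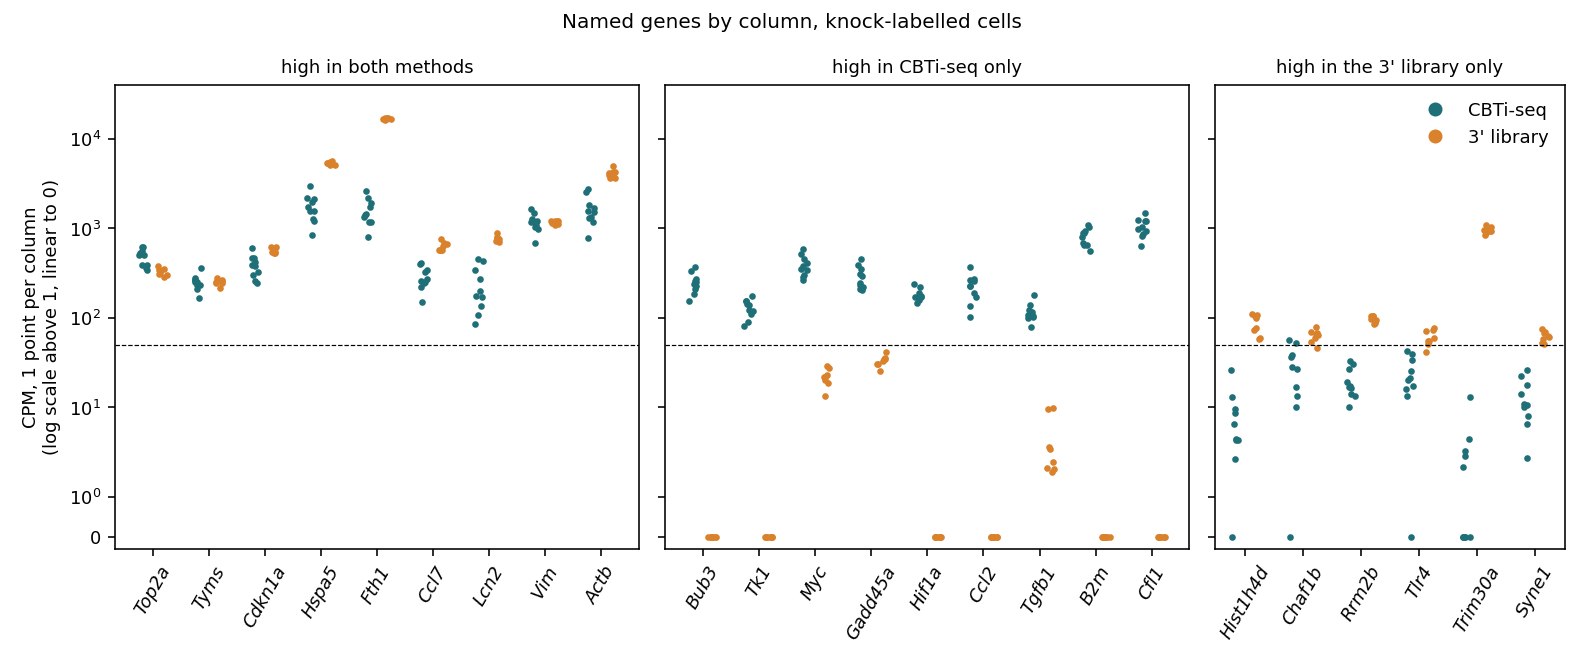
CPM of 24 named genes in each of the 10 CBTi-seq columns and the 8 columns of the 3' library labelled knock, on a scale that is logarithmic above 1 CPM and linear down to 0, with a dashed line at 50 CPM. In the middle panel Bub3, Tk1, Hif1a, Ccl2, B2m and Cfl1 are at 0 in all 8 3' columns, while Hspa5, Fth1 and Actb lie higher in every 3' column.

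Cytosolic ribosomal proteins and nuclear genes of respiration leaned to the 3' library. Of 81 cytosolic ribosomal proteins 73 were high in both methods and 8 in CBTi-seq only, and their median log2 ratio was -1.21. Rpl41, the smallest of them, was at 1272 CPM in CBTi-seq (745 to 2280.3) and 13018 CPM in the 3' library (12151 to 13822), while Rpl35 and Rpl13 were at 904 and 807 CPM with no 3' count. Of 75 nuclear genes of oxidative phosphorylation 66 were high in both, with a median log2 ratio of -0.92. Mitochondrially encoded genes did not share this median. Of 14 mitochondrially encoded genes at 20 CPM or more, 10 had higher and 4 lower CPM in CBTi-seq, and their median log2 ratio was 0.76, a difference of -0.18 from that of all genes. Single members went both ways: mt-Nd1, a subunit of complex I, was at 1529.7 CPM in CBTi-seq and 4285 CPM in the 3' library, while mt-Atp6, a subunit of ATP synthase, was at 175 and 10.5 CPM. Proteasome (31 of 34 high in both) and translation factors (33 of 38) had medians of 0.43 and 0.59. Cholesterol synthesis lay at the other end: 4 of 23 genes were high in both and 12 in CBTi-seq only, and the median log2 ratio was 2.05. Extracellular matrix genes had 10 of 36 high in both and 11 in CBTi-seq only. Of the 22 high in 1 or both, 45.5% were high in both, near the 43.3% over all genes. Sparc, a matrix glycoprotein, was at 526 and 1479.7 CPM. Ribosomal protein genes have many processed pseudogenes, so their counts depend on how shared reads were placed.

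Columns of CBTi-seq differed from each other in program level more than 3' columns did. The summed CPM of G2 and mitosis genes ran from 7884 to 15320.1 over the 10 CBTi-seq columns, a coefficient of variation of 24.1%, where counting error alone gives 1.81%. In the 8 3' columns it ran from 4893 to 5338, 3.09% against 1.35% from counting. For DNA replication and S phase the coefficients were 31.6% and 3.14%, and for histones 57.9% and 7.03%. Summed over whole programs, the coefficients in CBTi-seq were 13.2% for cycle, 11.3% for stress, 5.99% for cytokine and 5.91% for cytoskeleton genes. In the 3' columns they were 1.21%, 0.495%, 3.09% and 1.53%. The CPM of the most abundant genes in CBTi-seq carries the depth of the column. Actb, for 1, had 381 to 613 counts there while column totals differed by 4.81-fold. The part of depth in these coefficients was not tested. Whether a 3' column holds 1 cell, as the protocol describes, or the RNA of many was not given in the sources used here. Among genes with a mean of 50 CPM or more, the columns of the methods did not overlap for 2208 of 4125 (53.5%). For the programs these were 39 of 91 cycle, 81 of 130 stress, 21 of 36 cytokine and 52 of 99 cytoskeleton genes. Within the cycle it was 4 of 28 replication genes and 29 of 50 mitotic genes.

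**Figure D4:**
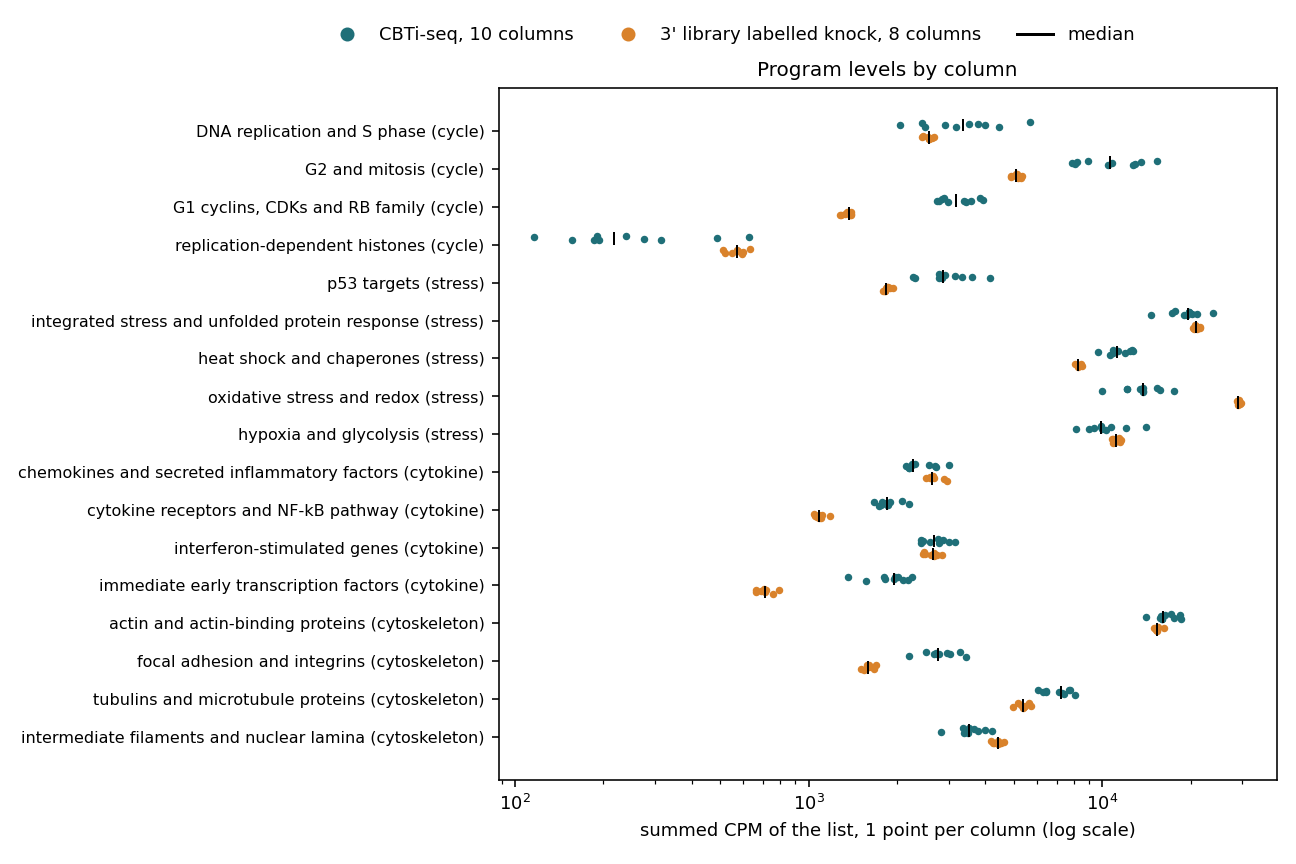
Summed CPM of each of 17 lists in single columns (log scale), with black ticks at the median of the 10 CBTi-seq and 8 3' columns. The CBTi-seq columns spread widely in histones (116 to 629 CPM) and S phase genes (2043 to 5680.3 CPM), while the 3' columns stay close together in every list.

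Most genes high in CBTi-seq with no 3' count share their place in the genome with another gene. There were 279 of them, and 277 (99.3%) overlap another gene annotated in GENCODE vM21 on either strand, beside 2461 of the 4757 (51.7%) high in CBTi-seq with a 3' count. In 268 of the 279 (96.1%) the overlap reaches into the last 500 bases of the gene, where a 3' method reads. This held for 12.7% of the genes high in both methods and 25.4% of those high in CBTi-seq only with a 3' count. This count of the last bases was added after the data were seen. Cfl1 overlaps Snx32, B2m overlaps Patl2, and Ccl2 lies within Gm17268, each on the opposite strand. Tk1, Bub3 and Cav1 lie within genes on the opposite strand too. Cdt1, Rpl13 and Cox4i1 lie within the long gene model Gm20388 on the same strand of chromosome 8. That model had 2659 counts in the 3' library and no row in CBTi-seq. Pseudogenes made up 19.7% of the 279 and 2.23% of those with a count. Of the 279, 262 had no count in the 3' library labelled control either. How the authors counted reads over overlapping genes is not given, and its part in these zeros was not tested. The 2 without overlap, named for that after their values were seen, were Oard1, at 98.1 CPM in CBTi-seq, and Rhox5, at 78.4 CPM (0 to 181). Rhox5, a homeobox gene, was at 2.07 CPM in the CBTi-seq control columns.

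By program, the CBTi-seq-only genes with no 3' count at all were 4 of 50 for the cycle and 7 of 41 for stress. They were 4 of 23 for cytokine and 7 of 36 for cytoskeleton genes, beside 279 of 2657 over all genes. All 22 genes of the programs overlap another gene, as do 277 of the 279. The cytoskeleton genes high in CBTi-seq only overlapped another gene in 29 of 36 cases (80.6%), beside 35 of the 69 high in both (50.7%). Over all genes these shares were 61.4% and 46.5%. For cytokine genes these were 11 of 23 (47.8%) and 3 of 20 (15.0%), for stress genes 25 of 41 (61.0%) and 42 of 95 (44.2%). The cycle was different, with 27 of 50 (54.0%) and 33 of 57 (57.9%). Without overlapping genes, 34 cytoskeleton genes were high in both and 7 in CBTi-seq only, while for the cycle it was 24 and 23. Over all genes without overlap 51.2% of those high in 1 or both were high in both, 41.3% in CBTi-seq only and 7.49% in the 3' library only.

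The ratio of the methods also moved with gene length. Among genes without overlap, split into 5 equal groups by their longest annotated transcript, the median log2 ratio was -0.31 in the shortest (112 to 1404 bases), 0.67 in the next, 1.03 and 1.12 after that, and 0.96 in the longest. By genomic span it was -0.01 in the shortest group, 1.12 in the fourth and 0.79 in the longest. Ribosomal protein, histone and oxidative phosphorylation genes, which leaned to the 3' library, are mostly short. The part of length in that lean was not tested. With GC content of the transcript the median went from 1.13 in the lowest group (33.0% to 43.9%) to 0.55 in the highest, a smaller range. Length, level and the share of counts near the upper end in CBTi-seq move together, and their separate parts were not tested.

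**Figure D5:**
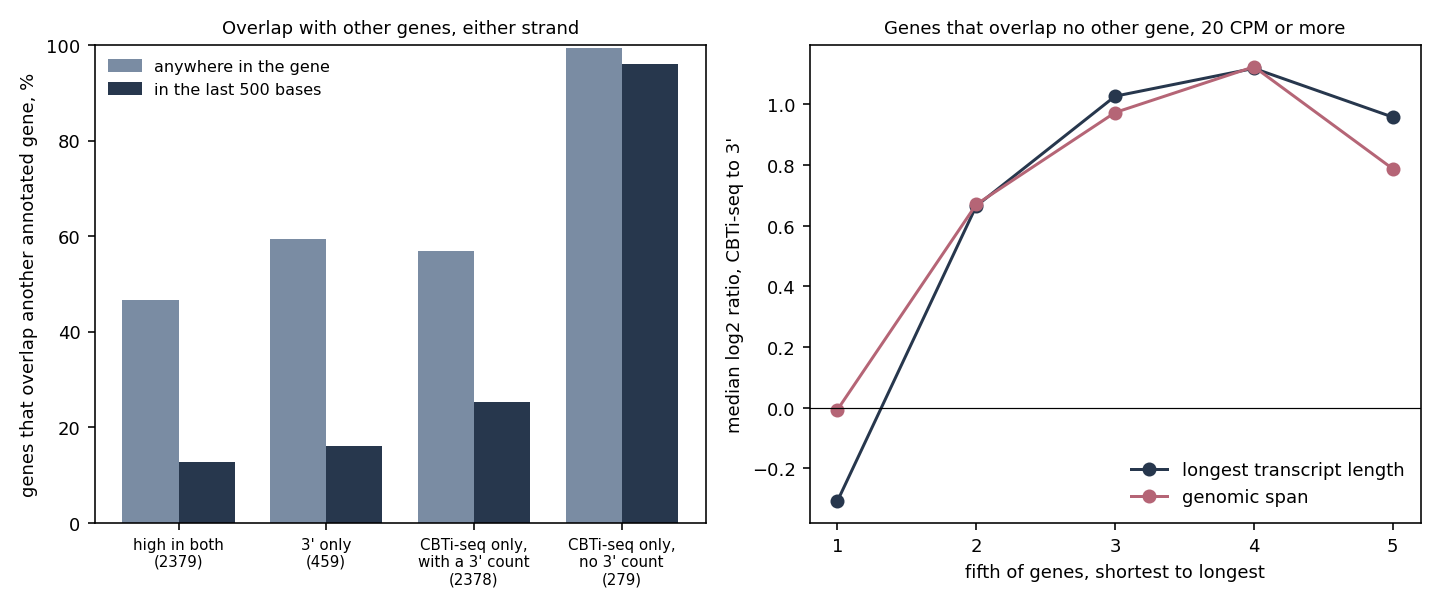
Left, the percentage of genes that overlap another annotated gene anywhere or in their last 500 bases, for genes high in both methods, in the 3' library only, and in CBTi-seq only with and without a 3' count; the last group stands at 99.3% and 96.1%. Right, the median log2 ratio of CBTi-seq to 3' CPM in 5 equal groups by length for genes without overlap, lowest in the shortest transcripts at -0.31.

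A further 459 genes were high in the 3' library only, and 23 of them had no count in the CBTi-seq knock columns. The 10 genes with the largest ratios toward the 3' library include Trim30a, Hist1h2br, Rpl15-ps3 and the following 3. Pde1c, a phosphodiesterase, had 1 count in CBTi-seq and 6661 in the 3' library (727 CPM, columns 524 to 1090.1), a log2 ratio of -11.32 (-16.62 to -8.84). That count was in the column Knock_5, and without it the bound was -9.52. Grik3, a kainate receptor subunit of neurons, had none and 4723 (515 CPM, 376 to 1261), so it was at least 603-fold higher in the 3' library. Hdac9, a histone deacetylase, had none and 3729. These 3 genes overlap others on the same strand. The median genomic span of the 459 was 55564 bases, beside 15849 for genes high in both and 21847 for those high in CBTi-seq only, and 12.2% were pseudogenes.

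The control columns, read the same way, gave other ratios for mitotic genes. The ratio over all genes had a median log2 of 1.46 in the control columns and 0.94 in the knock columns. For G2 and mitosis genes it was 3.01 in the control and 1.34 in the knock columns. In CBTi-seq their summed level was 10537 CPM in control and 10503 CPM in knock columns. In the 3' libraries it was 2016 CPM under the label control and 5106 CPM under the label knock, so the levels of the 3' libraries differed and those of CBTi-seq hardly did. Extracellular matrix genes had medians of 3.40 and 1.14 in control and knock columns. Mitotic genes high in both methods numbered 11 in control and 31 in knock columns, beside 1992 and 2379 over all genes. For heat shock and chaperones, these counts were 22 and 22, with medians of 0.98 and 0.72. Cytosolic ribosomal proteins held 24.1% of the counts in the 3' library labelled control and 16.1% in that labelled knock. The part of this difference in the ratios was not tested. Ccl7 had a log2 ratio of 2.61 in control and -1.02 in knock columns, and Lcn2 -1.92 and -1.74. Each 3' library is 1 sample, so a difference between libraries cannot be told apart from one between conditions.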

How the data were processed

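Per the labels, RNA of single L929 cells was sequenced; the files the authors deposited hold raw counts, whole numbers for each gene in each column. One table names genes by symbol (CBTi-seq), the 3' tables by 55402 Ensembl IDs. The submitters' processing notes name FastQC, Picard, STAR 2.7.11b, GRCm38 and GRCh38, without the role of each build. Not given in the sources used here were the counting tool, its strand setting, and whether 3' counts are reads or molecules.

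Of the IDs 55141 matched GENCODE vM21 (GRCm38). Of the CBTi-seq symbols 20186 matched directly and 142 through RefSeq synonyms. Shared genes held 99.3% of the CBTi-seq and 95.7% of the 3' counts. Columns with at least 500 counts were used, which was all of them. CPM used totals over all genes. Where a gene had no count, its ratio was computed with 3 counts as a bound. Ratios were summarised at a mean of 20 CPM or more and called 4-fold apart at 50 CPM or more. Overlap means shared bases between gene bodies.

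Members, gene lists and alternatives were chosen with earlier results of these data known. Named genes are the 3 reductase subunits, up to 3 members of each list per class (high in both, by the lower level; high in 1 method, by ratio) and the 10 largest ratios each way; some are left out. The calculation was checked on simulated data. Python 3.11.15 with pandas 2.3.3, numpy 2.4.6, scipy 1.17.1 and matplotlib 3.10.9 was used, and R 4.3.3 with edgeR 4.0.16 (TMM factors) and DESeq2 1.42.0 (size factors from genes with 10 or more counts in both methods).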

Additional observations from a re-analysis of the deposited data

Results flagged for a closer look

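At 50 CPM or more in the 3' library labelled knock, 172 genes had no CBTi-seq row matched by symbol or RefSeq synonym. They entered no comparison. Of these, 129 are annotated as protein coding and 25 as long intergenic RNA. By level they were led by Gm13483 at 843 CPM, Vmn2r40, a vomeronasal receptor, at 827 CPM, Afm at 673 CPM and Agmo at 447 CPM. The reason for the missing matches was not tested, and a gene that CBTi-seq lists under another symbol would be among them.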

How the results depend on the processing

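The counts, medians and single-gene ratios were recomputed under 18 other settings and without each of the 18 columns, except for genes that a setting leaves out. With 1 sample per method none of this stands in for replicates, and depth leaves genes under about 1 CPM unread. The settings without genes that overlap another on either strand, and with the same symbol in both tables only, were added after the data were seen.

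The median log2 ratio of all genes, 0.94 as reported, was 0.045 with TMM factors. With these, genes high in CBTi-seq only numbered 1483, in the 3' library only 1004, and 4-fold higher genes 361 and 434. Program medians were 0.21 for cycle, 0.051 for stress, -0.19 for cytokine and -0.20 for cytoskeleton genes. With median-of-ratios factors the counts were 1394, 1076, 331 and 474, the medians 0.12, -0.029, -0.27 and -0.28, and that of all genes -0.043. The difference of p53 targets from all genes was -0.064 under TMM and -0.055 under median-of-ratios factors, and -0.037 after thinning to 50000 counts a column. Totals without mitochondrial and ribosomal protein genes gave medians of 0.68 (stress), 0.53 (cytokine) and 0.46 (cytoskeleton), and 1.12 for all genes in the control columns. The cause of each shift was not tested beyond the factors themselves.

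The level called high set the counts by construction. At 20 CPM, 4816 genes were high in both methods, 716 in the 3' library only and 568 with no 3' count, with 98 cycle and 38 cytokine genes high in both. At 100 CPM these were 1188, 279 and 138, with 25 cycle and 12 cytokine genes, and 1557 high in CBTi-seq only. With the top 3000 genes by CPM, 1046 were in CBTi-seq only, 1043 in the 3' library only and 150 without a 3' count, and per kilobase 950 and 950. At 2-fold 1802 and 442 genes were apart. With no level limit but a count in both methods 2974 and 1177 were 4-fold apart, the cytokine median was 0.77 and its difference from all genes -0.034.

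Without genes that overlap another on either strand there were fewer genes: 1272 high in both, 1026 in CBTi-seq only, 186 in the 3' library only, 282 and 89 apart by 4-fold, and 2 with no 3' count (163 without same-strand overlaps). Cycle, stress and cytoskeleton genes high in both numbered 24, 53 and 34. The cytoskeleton median was 0.24 and its difference from all genes -0.54, that of cytokine genes -0.14, and the control median 1.25. The shortest transcripts less the longest gave -1.27 (-0.84 without same-strand overlaps), against -0.54 over all genes.

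Leaving out a column kept genes high in both between 2365 and 2395, in CBTi-seq only between 2492 and 2708, and in the 3' library only between 449 and 473. Thinning, collision corrections, equal weight per column, totals of shared genes, identical symbols only, and leaving out genes without a 3' count moved none of the overall counts by over 1.5 times. Single results, 180 gene ratios and 35 list values, moved more. TMM and median-of-ratios factors lower every gene ratio by 0.81 and 0.89. Thinning moved 71 of the 215 single results, among them 66 gene ratios, 40 of them of genes with no count in 1 method, whose bound falls with depth. Leaving out 3' sample05 moved 25. No paired analysis was possible because the numbers in the column names mark no shared cell, culture or library.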
